A study of Mus musculus with 6 samples.

Results

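The pathway of the prolactin and growth hormone receptors, and the inhibitors that shut it off, was followed here in epidermal basal cells of pregnant mice. All probe sets annotated to Ghr, Jak2, Stat5a, Stat5b, Cish, Socs1, Socs2 or Socs3 were taken: 8 of the 18193 genes named on the array, measured by 20 probe sets. Prlr, the prolactin receptor, was asked for as a ninth gene and was not analysed here. Each probe set was kept apart, and its level is the MAS5 signal, a brightness in arbitrary units with a detection call of present, marginal or absent. Of the 20 probe sets, 11 were called present on all 6 arrays and 3 on none, and 15 had a pair of present calls in 1 group or more and were tested. The other 5 are given by their values alone.

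The mice were C57BL/6 females, 10 weeks old, with no transgene or agent given in the labels. There were 3 groups of 2 arrays each: ventral skin of virgin mice, dorsal skin at 16 days post-coitus (dpc) and ventral skin at 16 dpc. Ventral skin is the skin that stretches over the growing abdomen, and the arrays were made to ask what sets its basal cells apart from those of virgin and of dorsal skin. The dermis was taken off after a night in cold trypsin, and living cells positive for α6-integrin, which anchors basal keratinocytes to the basement membrane, were sorted. No marker against immune or mammary cells was part of the gate, and the number of mice behind each array is not stated. Dorsal cells of virgin mice were not analysed here. The pregnant dorsal group therefore has no counterpart of its own site and differs from the virgin group in both site and pregnancy.

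Prolactin and growth hormone bind cytokine receptors that carry the kinase JAK2. JAK2 phosphorylates STAT5A and STAT5B, which pair, enter the nucleus and bind paired half-sites with a short gap (GAS elements). Among the genes they switch on are Cish and Socs2, whose proteins bind the active receptor or kinase through an SH2 domain and a SOCS box that recruits a ubiquitin ligase, closing a negative feedback loop. Placental lactogens act through the same receptor in pregnancy, and the mammary gland is the best-known target.

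Between 47.2% and 53.3% of the 45101 probe sets were called present on an array. All 8 basal keratinocyte markers, Krt5, Krt14 and Itga6 among them, were called present on all 6 arrays. So were all 6 markers of differentiating keratinocytes, with Krt10 at 34929 to 50772 and Krt1 at 18562 to 25274, so the calls alone do not set basal cells apart from those above them. The ratio of 3′ to 5′ signal of actin, which climbs as RNA degrades, was 1.78 to 2.46 on 4 arrays but 4.47 on 16 dpc dorsal replicate 2 and 3.90 on 16 dpc ventral replicate 2. Socs2, Cish and 1 Ghr probe set are also given without that pair of arrays. No label says that the arrays of a group came from separate animals, so p-values speak for the scatter among these samples alone, possibly a technical one, and 2 arrays per group limit every value.

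The feedback genes Socs2 and Cish carried the clearest differences. On Cish and on 4 of the 6 Socs2 probe sets, all 4 arrays of 16 dpc cells gave higher signals than both virgin arrays. This held in dorsal as in ventral skin. Of the 4, 1438470_at and 1446085_at were weak, with absent calls at 16 dpc. The first was not tested, and the second passed the filter through the dorsal group only. Such gaps were common: groups did not overlap for 43.8% of all 22463 probe sets in ventral over virgin cells. In dorsal over virgin cells the share was 40.5%. Both shares count 1 comparison in either direction over tested probe sets. The share with all 4 arrays at 16 dpc above both virgin arrays was not counted. Groups overlapped on most tested probe sets of the receptor Ghr and the kinase Jak2. On 1 of 3 Socs3 probe sets both 16 dpc groups lay below the virgin pair. No member probe set passed the limma test over all 22463 probe sets at an adjusted p of 0.05 in any comparison. With 1 probe set per gene, Socs2, on 1418507_s_at, passed as higher in 16 dpc ventral over virgin ventral cells.

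The promoters of Cish and Socs3 are shown because these inhibitors are textbook STAT targets and their windows held the GAS core TTCNNNGAA, a motif that reads the same on both strands. Promoters came from RefSeq (GRCm38.p6), 250 bases before to 50 after each gene start, and 13 of them belonged to 8 of the 9 genes asked for, without Socs2. The core was held by 3 of the 13, those shown and 1 of Prlr. Capitals mark the core. The Cish stretch is chr9:107296429-107296678 on the plus strand and ends 20 bases after the gene start. The Socs3 stretch is chr11:117969367-117969616 on the minus strand and ends at the start.
Cish: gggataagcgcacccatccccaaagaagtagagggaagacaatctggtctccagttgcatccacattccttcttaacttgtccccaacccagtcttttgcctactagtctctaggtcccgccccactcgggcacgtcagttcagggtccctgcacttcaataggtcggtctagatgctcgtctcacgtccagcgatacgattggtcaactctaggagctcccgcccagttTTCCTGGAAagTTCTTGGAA
Socs3: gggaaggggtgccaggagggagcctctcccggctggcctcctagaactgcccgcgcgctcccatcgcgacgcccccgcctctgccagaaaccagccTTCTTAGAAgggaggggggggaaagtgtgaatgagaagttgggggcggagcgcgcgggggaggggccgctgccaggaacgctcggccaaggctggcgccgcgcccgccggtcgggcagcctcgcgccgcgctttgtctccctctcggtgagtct
The Cish window held 2 cores, TTCCTGGAA from base 1 after the gene start and TTCTTGGAA from base 12, with no overlap between them. The Socs3 core, TTCTTAGAA, begins 154 bases before the start. Of all 32851 promoters of 300 bases, 8.30% held at least 1 core and 0.457% held 2 or more. The matches describe letters only and show no binding.

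Ghr binds growth hormone and Jak2 is its kinase. On 1417962_s_at, the Ghr probe set of highest signal, the virgin arrays gave 3512 and 3088, the 16 dpc dorsal arrays 3124 and 2816, and the 16 dpc ventral arrays 2866 and 3130. The groups overlapped in every comparison. Ventral over virgin cells differed by −0.14 ± 0.15 (log2, SE, n = 2 arrays per group) with a 95% interval of −0.49 to 0.22, and ventral over dorsal cells by 0.01 with an interval of −0.34 to 0.37. On this probe set a difference beyond 1 log2 unit therefore lay outside both intervals.

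The second Ghr probe set, 1451501_a_at, gave 731 and 909 in virgin cells, 855 and 409 in dorsal cells and 980 and 651 in ventral cells. The lowest value came from the dorsal array of high actin ratio, and again the groups overlapped. Dorsal over virgin cells differed by −0.46 ± 0.37 (log2, SE) with a 95% interval of −1.34 to 0.42, and by 0.07 without both arrays of high actin ratio. Ventral over dorsal cells differed by 0.43 ± 0.37, with an interval of −0.45 to 1.31. Both intervals reached beyond 1 log2 unit. The third, 1451871_a_at, was called absent on all 6 arrays at 7.02 to 42.3. Probe sets of 1 gene read different stretches of its transcripts, and their levels are not set against each other.

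Jak2 signals on 1421066_at were 1268 and 1207 in virgin cells, 1197 and 1455 in dorsal cells and 1131 and 1398 in ventral cells. These values interleave, and ventral over virgin cells differed by 0.02 ± 0.19 (log2, SE). On 1421065_at the signals were 197 and 260 in virgin, 243 and 259 in dorsal and 291 and 265 in ventral cells, the last called marginal. Here both ventral values lay above the other 4, by a difference over virgin cells of 0.29 ± 0.25 with an adjusted p of 0.702 in limma.

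Stat5a and Stat5b encode the transcription factors of the pathway. Stat5a on 1421469_a_at gave 979 and 895 in virgin cells, 1073 and 1028 in dorsal cells and 1173 and 1510 in ventral cells. The 3 groups did not overlap, with ventral cells highest. Ventral over virgin cells differed by 0.51 ± 0.18 (log2, SE; adjusted p = 0.530 in limma), and ventral over dorsal cells by 0.34 ± 0.18 (adjusted p = 0.9999), so neither passed the test.

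The weaker Stat5a probe set, 1450259_a_at, had the same group on top: 60.0 and 52.1 in virgin cells, 66.3 and 53.2 in dorsal cells and 145 and 78.7 in ventral cells. Dorsal replicate 2 was called absent. Its ventral over virgin difference was 0.94 ± 0.43 with an adjusted p of 0.549 in limma, and ventral over dorsal cells stood at 0.85 ± 0.43.

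Stat5b on 1422103_a_at gave 837 and 984 in virgin, 857 and 1171 in dorsal and 971 and 1363 in ventral cells. The groups overlapped, and in each group replicate 2 was the higher array. Ventral over virgin cells differed by 0.34 ± 0.24 (log2, SE). The second Stat5b probe set, 1422102_a_at, was absent on all 6 arrays at 16.6 to 69.0.

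Cish encodes CIS, the founding member of the SOCS family and an early STAT5 target. Its single probe set, 1448724_at, gave 1283 and 1563 in virgin cells, 2403 and 2830 in dorsal cells and 2598 and 3582 in ventral cells. All 4 values at 16 dpc lay above both virgin values, and the dorsal and ventral pairs overlapped. The means were 1423 ± 198 (SD, n = 2) in virgin, 2616 ± 302 in dorsal and 3090 ± 696 in ventral cells.

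As log2 fold changes, Cish stood at 1.11 ± 0.21 (SE) in ventral over virgin cells, a 2.15-fold difference, with a limma adjusted p of 0.324. It stood at 0.88 ± 0.21 in dorsal over virgin cells, 1.84-fold, with an adjusted p of 0.694. These comparisons share the virgin arrays. Ventral over dorsal cells differed by 0.23 ± 0.21, with an interval of −0.27 to 0.72. Without the pair of arrays of high actin ratio, Cish was still higher in ventral over virgin cells, at 0.88, and in dorsal over virgin cells, at 0.76, and did not pass (adjusted p = 0.130 and 0.333 in limma).

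Socs2 limits growth hormone signalling, and mice that lack it grow large. On 1418507_s_at the virgin arrays gave 106 and 183, the dorsal arrays 736 and 587 and the ventral arrays 939 and 1003. The 3 groups stood apart without overlap, lowest in virgin and highest in ventral cells. The means were 144 ± 54.7 (SD, n = 2), 662 ± 106 and 971 ± 44.9.

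Ventral over virgin cells differed on this probe set by 2.80 ± 0.30 (log2, SE), which is 6.98-fold, with an interval of 2.11 to 3.50. It ranked as number 3 of 22463 probe sets by p, and its adjusted p in limma was 0.138. When each gene was represented by 1 probe set, that of highest mean, 1418507_s_at stood for Socs2 and passed with an adjusted p of 0.0144 in limma, as 1 of 22 genes called among 11159, or 0.197%. The margin that chose it was narrow, a mean log2 signal of 8.80 against 8.78 on 1449109_at. That fit was not run with 1449109_at in its place. Dorsal over virgin cells differed by 2.24 ± 0.30, 4.73-fold (adjusted p = 0.367, and 0.0529 with 1 probe set per gene). Ventral over dorsal cells differed by 0.56 ± 0.30, with an interval of −0.14 to 1.26 and an adjusted p of 0.9999 in limma, so the excess of ventral over dorsal cells did not pass the test.

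A second Socs2 probe set, 1449109_at, gave 146 and 169 in virgin cells, 1038 and 386 in dorsal cells and 1058 and 694 in ventral cells. Again both virgin values were the lowest, while dorsal and ventral cells overlapped. In both 16 dpc groups the array of high actin ratio was the lower one. Ventral over virgin cells differed by 2.45 ± 0.46 (adjusted p = 0.324 in limma) and dorsal over virgin cells by 2.01 ± 0.46 (adjusted p = 0.694).

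Without both arrays of high actin ratio, an alternative chosen after seeing the data, the spread came from the virgin pair alone and the lone 16 dpc arrays were assumed to vary like it. That fit called 202 of all 22463 probe sets in ventral over virgin cells, or 0.899%, 107 in dorsal over virgin cells, or 0.476%, and 37 in ventral over dorsal cells, or 0.165%, where 0, 0 and 1 were called with all arrays. Both Socs2 probe sets were among those called in each comparison with virgin cells. On 1418507_s_at the log2 differences were 2.76 in ventral cells (adjusted p = 2.2e-05) and 2.40 in dorsal cells (adjusted p = 0.000276), and on 1449109_at they were 2.75 and 2.72 (adjusted p = 5.9e-06 and 9.8e-06 in limma).

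The other 4 Socs2 probe sets had low signals. On 1438470_at the virgin arrays were absent at 3.12 and 2.73, while the dorsal arrays gave 67.1, present, and 29.6, absent, and the ventral arrays 61.1, present, and 58.3, absent. This probe set was called absent even at 58.3, and no group was present on both arrays. It was therefore not tested, and no fold is given.

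On 1446085_at the signals were 22.1 (absent) and 24.1 in virgin, 39.4 and 39.7 in dorsal and 79.6 and 37.5 (absent) in ventral cells. Only the dorsal group was present on both arrays. The virgin pair was once more the lowest, and ventral over virgin cells differed by 1.24 ± 0.52 (adjusted p = 0.549 in limma). By contrast 1442586_at gave 47.9 and 69.7, 53.0 and 96.0, and 67.0 and 58.7 in the same order, which overlap throughout and differ by 0.12 ± 0.45 between ventral and virgin cells. The last, 1441476_at, was absent on all 6 arrays at 2.49 to 19.9. Of the 6 Socs2 probe sets, 4 were therefore lowest on both virgin arrays. Among them 1438470_at and 1446085_at were weak, with absent calls at 16 dpc. The other 2, with low signals, overlapped between virgin and ventral cells. Over all tested probe sets, 43.8% had no overlap between those groups, in either direction.

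**Figure D1:**
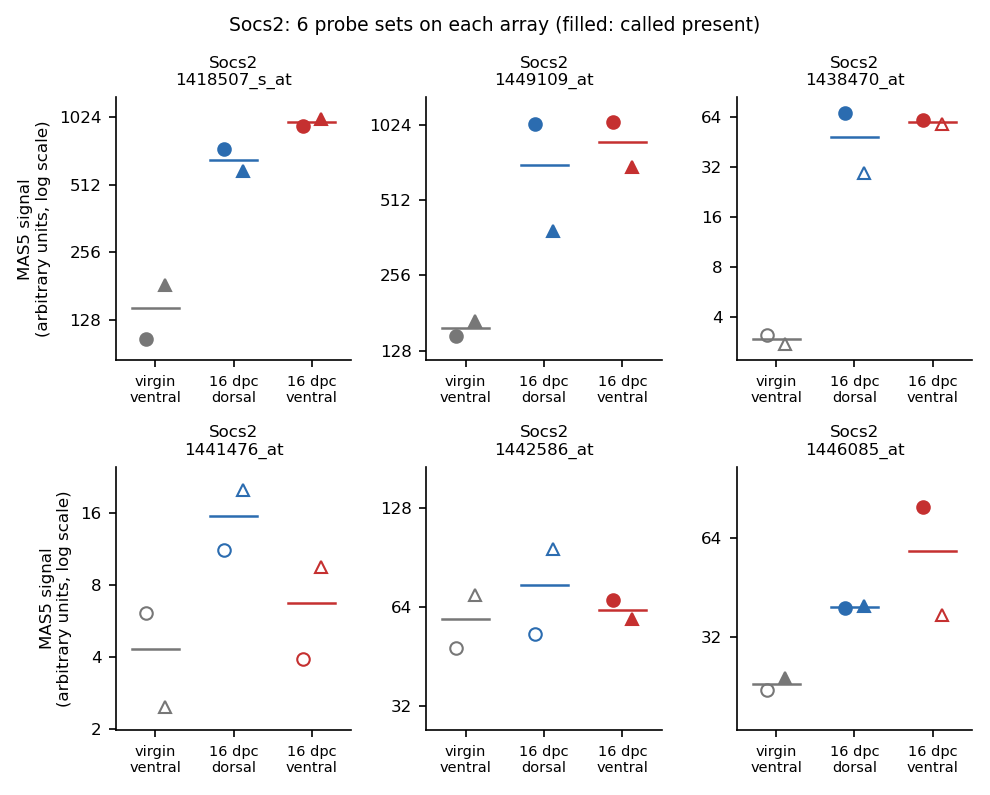
MAS5 signal (arbitrary units, log scale) of the 6 Socs2 probe sets in the 3 groups. Circles are replicate 1, triangles replicate 2, filled symbols were called present, and bars are group means. On 1418507_s_at and 1449109_at all 4 values at 16 dpc, 386 or more, lie above both virgin values, 183 or less.

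Summed signals of Langerhans cell markers, and less clearly of T cell markers, moved with Socs2 and Cish. The 6 Langerhans cell markers summed to 2616 and 4165 on the virgin arrays and to 5794 to 8243 on the arrays at 16 dpc, with 4 or 5 of the 6 called present in virgin cells and 5 or 6 at 16 dpc. Cd207, their defining lectin, gave 129 and 33.1 in virgin cells, 250 and 176 in dorsal cells and 304 and 186 in ventral cells. The 6 T cell markers summed to 266 and 344 in virgin cells and to 440 to 691 at 16 dpc, with 2 or 3 called present. Cd3e, Cd3d and Cd2 were called present on no array. Cd3g, present on all 6, overlapped, at 117 and 80.9 in virgin cells and 102 to 188 at 16 dpc, and Nkg7 overlapped too. Ptprc gave 124 and 91.2 against 156 to 238. The sum of 6 fibroblast markers went the other way, at 267 and 437 against 160 to 193, with 1 or 2 called present. Dcn gave 122 and 196 in virgin cells against 12.0 to 42.3 at 16 dpc, and Lum, lower too, was present on no array. Col1a1, Col1a2, Col3a1 and Pdgfra overlapped. In sorted bulk cells, fewer cells of a type and less RNA per cell cannot be told apart, and the part of these cells in the Socs2 and Cish differences was not tested. Basal keratinocyte markers summed to 152470 and 157362 in virgin cells and to 136605 to 193502 at 16 dpc, overlapping ranges.

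Socs3 answers mainly to cytokines that signal through STAT3 and is the inhibitor of their shared receptor chain. Its probe set of highest signal, 1455899_x_at, gave 3137 and 3275 in virgin cells, 1987 and 2323 in dorsal cells and 2517 and 2605 in ventral cells. The groups did not overlap, with virgin cells highest and dorsal cells lowest, the order opposite to that of Socs2 between virgin and 16 dpc cells. The suffix _x_at marks a probe set some of whose probes also match other sequences, so its signal is uncertain.

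Dorsal over virgin cells differed on that probe set by −0.58 ± 0.15 (log2, SE; adjusted p = 0.694 in limma), a signal 1.49-fold lower. Ventral over virgin cells differed by −0.32 ± 0.15 (adjusted p = 0.551). On 1416576_at the signals were 588 and 924, 475 and 520, and 510 and 592, so that both dorsal values and 1 ventral value lay below the virgin pair. On 1456212_x_at they were 1275 and 1516, 1191 and 1272, and 1222 and 1463, with a ventral over virgin difference of −0.06 ± 0.18. None of the 3 Socs3 probe sets passed the test.

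Socs1, the inhibitor of interferon signalling, was near background on its single probe set 1450446_a_at. The signals were 78.5 (marginal) and 88.0 (absent) in virgin cells, 86.0 (present) and 33.9 (absent) in dorsal cells and 76.5 (present) and 74.0 (marginal) in ventral cells. No group was present on both arrays, so it was not tested, and no fold is given.

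**Figure D2:**
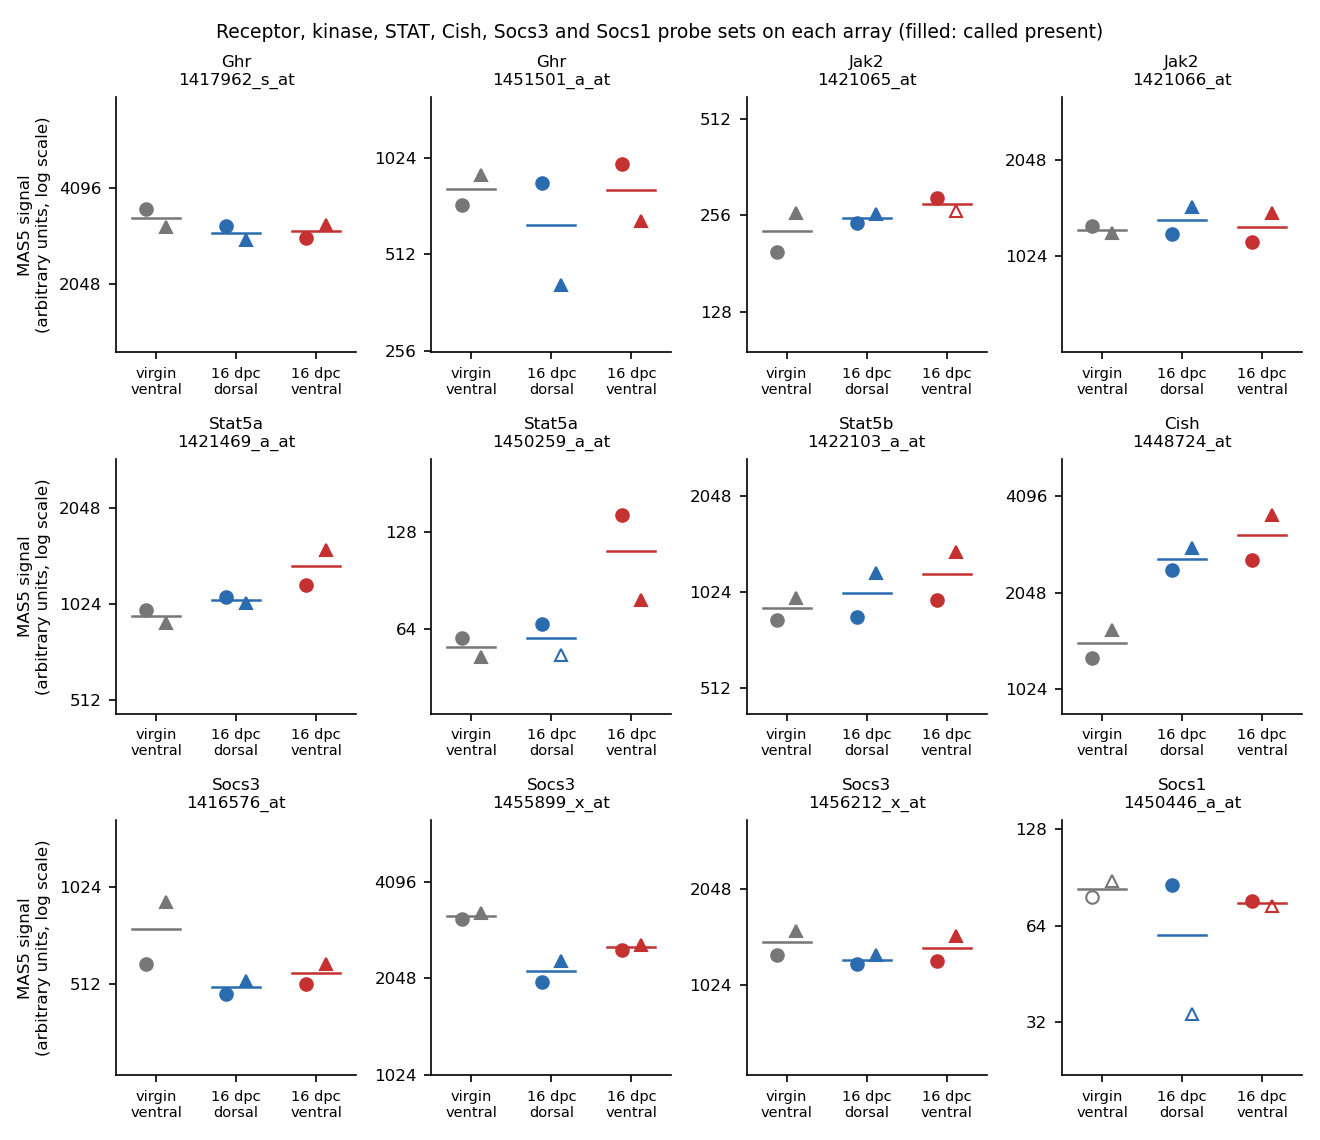
MAS5 signal (arbitrary units, log scale) of the tested probe sets of Ghr, Jak2, Stat5a, Stat5b, Cish and Socs3, and of the single Socs1 probe set. Circles are replicate 1, triangles replicate 2, filled symbols were called present, and bars are group means. Cish at 16 dpc lies at 2403 or more against 1563 or less in virgin cells, while groups overlap on the Ghr probe sets and on 1421066_at of Jak2.

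Counted over the tested probe sets, 0 of 15 passed limma at an adjusted p of 0.05 in ventral over virgin cells, where 0% of all 22463 passed. At an unadjusted p under 0.05 there were 5 of 15, all higher in ventral cells, against 9.06% of all probe sets. These 5 were 3 probe sets of Socs2, which share a target, with Cish and Stat5a. The weakest Socs2 probe set of the 3, 1446085_at, was called absent on 1 virgin and 1 ventral array. Groups without overlap were found for 8 of 15, 7 higher and 1 lower, against 43.8% of all, a share close to the background. The filter keeps a weak probe set when its highest group is present, so these counts cover the members that passed it and are no support for a direction.

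In dorsal over virgin cells 0 of 15 passed, against 0% of all. Unadjusted there were 4 of 15, 3 higher and 1 lower, against 6.51%: 1418507_s_at and 1449109_at of Socs2, Cish, and 1455899_x_at of Socs3, the lower one. Groups did not overlap for 8 of 15, 5 higher and 3 lower, against 40.5% of all. In ventral over dorsal cells 0 of 15 passed in limma, against 0.00445% of all, which is 1 probe set, and none of the 15 had an unadjusted p under 0.05, against 3.38%. There 5 of 15 did not overlap, all higher in ventral cells, against 30% of all. The median log2 difference of the 15 was 0.29 in ventral over virgin, 0.14 in dorsal over virgin and 0.23 in ventral over dorsal cells, beside −0.03, 0.03 and −0.03 for all probe sets. Each pair of comparisons shares a group of arrays.

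**Figure D3:**
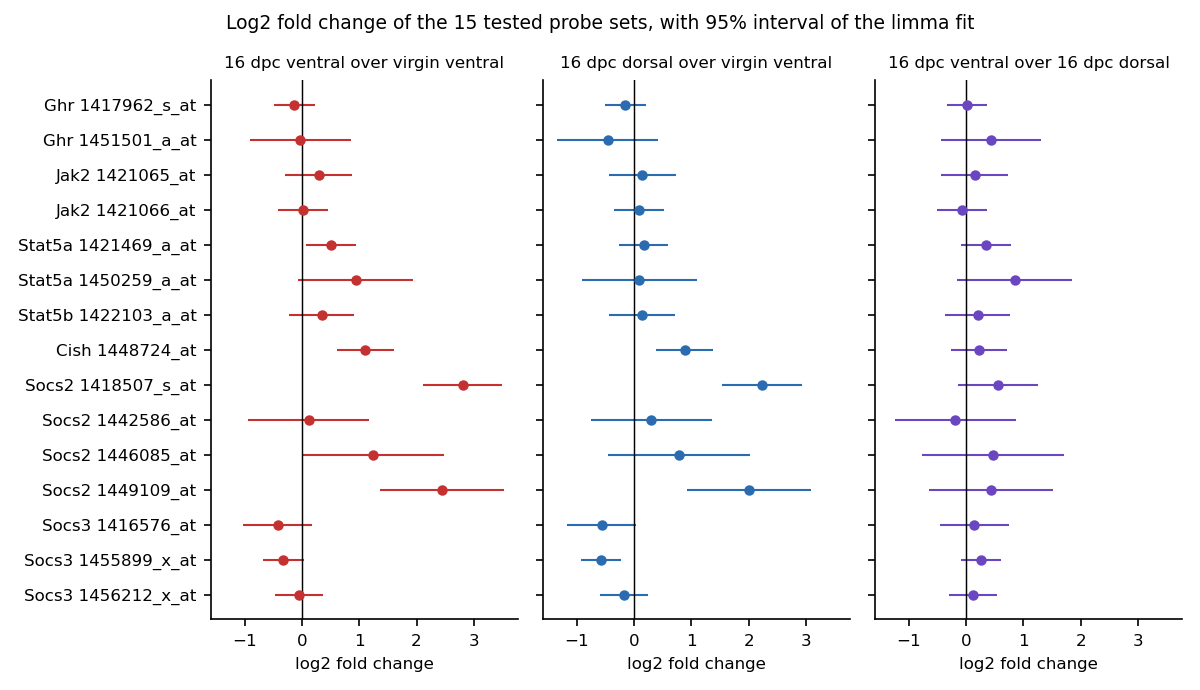
Log2 fold change of each of the 15 tested probe sets in the 3 comparisons, as points with the 95% interval of the limma fit. Intervals of Cish and of 1418507_s_at and 1449109_at of Socs2 lie above 0 in both comparisons with virgin cells, and every interval of ventral over dorsal cells includes 0.

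The rest of the pathway was read from 7 lists of related genes, with 58 genes and 127 probe sets tested. In limma 0 of the 127 passed in any comparison. At an unadjusted p under 0.05, 8 were higher and 10 lower in ventral over virgin cells, which is 14.2% beside 9.06% of all probe sets. In dorsal over virgin cells 2 were higher and 6 lower, 6.30% beside 6.51%, and in ventral over dorsal cells 5 were higher and 3 lower, 6.30% beside 3.38%. The counts per list below are to be read against the same shares of all probe sets, and a named gene is given on its probe set of highest mean unless another is named. The hormone list had 2 of 6 genes on the array, Prl and Gh, and neither was called present on both arrays of any group.

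Of 25 probe sets of other cytokine receptors, 3 were higher and 2 lower in ventral over virgin cells at an unadjusted p under 0.05. Il4ra, the receptor chain for interleukin-4 and interleukin-13, gave 504 and 419 in virgin cells, 647 and 863 in dorsal cells and 1143 and 1276 in ventral cells. On this probe set, 1421034_a_at, the groups did not overlap, with virgin cells lowest and ventral cells highest. Its ventral over virgin difference of 1.39 ± 0.21 (adjusted p = 0.259 in limma) passed with 1 probe set per gene (adjusted p = 0.0485). The second Il4ra probe set, 1447858_x_at, overlapped in every comparison, at 0.37 ± 0.47 in ventral over virgin and −0.35 ± 0.47 in dorsal over virgin cells. Il6ra, the interleukin-6 receptor, went from 5987 and 5028 in virgin cells to 3069 and 2126 in dorsal and 3534 and 2174 in ventral cells. Its ventral over virgin difference was −0.99 ± 0.28, and the lower value of each 16 dpc pair came from the array of high actin ratio. Ifnar2, an interferon receptor chain, stood at 0.60 ± 0.24.

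Among 11 probe sets of the other JAK and STAT genes, 0 were higher and 1 lower unadjusted in ventral over virgin cells, with a median of −0.20. Tyk2 and Stat6 differed by −0.16 ± 0.18 and −0.17 ± 0.17. Stat3 gave 3914 and 3600 in virgin cells but 3243 and 1214 in dorsal and 4187 and 1608 in ventral cells, the low value of each pair being the array of high actin ratio. The single lower probe set, 1433804_at of Jak1, a kinase of many cytokine receptors, stood at −2.86 ± 1.14, while 1433803_at of the same gene stood at 0.11 ± 0.15.

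The 32 probe sets of other SOCS genes and inhibitors centred on −0.03 in ventral over virgin cells, with 1 higher and 0 lower unadjusted. Pias1 and Pias3, which block STAT binding to DNA, differed by −0.46 ± 0.23 and −0.33 ± 0.17, while further probe sets stood at 0.24 ± 0.35 (Pias1 1446448_at) and 0.18 ± 0.30 (Pias3 1421646_a_at). Ptpn6, a phosphatase that acts on cytokine receptors, differed by −0.72 ± 0.26 between ventral and dorsal cells on 1456694_x_at (adjusted p = 0.9999 in limma) and by −0.03 ± 0.18 on 1460188_at. In the ligase that SOCS boxes recruit, the subunits Elob, Eloc and Rnf7 differed by 0.30 ± 0.18, 0.08 ± 0.16 and 0.19 ± 0.16. Its scaffold Cul5 disagreed between probe sets in ventral over virgin cells. It stood at −1.81 ± 0.70 on 1456102_a_at, −1.62 ± 0.74 on 1452722_a_at and 0.01 ± 0.23 on 1428287_at. Of that list, only 1456102_a_at had an unadjusted p under 0.05 in limma.

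Adaptors that carry the signal to other kinases had 0 of 19 probe sets higher and 3 lower unadjusted in ventral over virgin cells. Gab2 differed by −0.83 ± 0.29. Irs2 gave 327 and 322 in virgin cells against 172 and 64.3 in dorsal and 147 and 8.72 in ventral cells, with the lower value of each pair on the array of high actin ratio. Irs1 stood higher in dorsal cells, 2227 and 2444, than in ventral cells, 1518 and 1419, a ventral over dorsal difference of −0.67 ± 0.25.

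The 29 probe sets of STAT5 targets had 4 higher and 3 lower unadjusted in ventral over virgin cells, with a median of −0.16. The higher ones were milk protein genes and Igfals, which encodes a carrier subunit of circulating IGF. Igfals gave 35.3 and 45.0, 37.3 and 22.9, and 122 and 109 in virgin, dorsal and ventral cells, a ventral over dorsal difference of 1.98 ± 0.44 (adjusted p = 0.838 in limma). Csn1s1, a casein, gave 64.6 and 26.5, 94.2 and 125, and 1031 and 186. Csn2, β-casein, gave 172 and 2.29, 204 and 348, and 6185 and 699 on 1420369_a_at. Both caseins were highest on ventral replicate 1. There the 8 mammary epithelium markers summed to 8347 against 471 to 1177 on the other 5 arrays, with 7 of 8 called present against 2 to 4. That sum includes both caseins and is mostly made of them, so it is no separate measure. Csn3, Wap and Elf5 were also highest on that array, at 646, 151 and 129. Krt8 and Krt18 went the other way, at 220 and 474 and at 161 and 413 in virgin cells against 104 and 94.3 on that array. The part of mammary cells in these values was not tested.

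Pim1, a kinase and common cytokine target, gave 1660 and 1611 in virgin, 1181 and 793 in dorsal and 1002 and 710 in ventral cells. It stood lower at 16 dpc, by −0.96 ± 0.25 in ventral over virgin cells (adjusted p = 0.494 in limma), the direction opposite to Cish and Socs2. In both 16 dpc groups the lower Pim1 value came from the array of high actin ratio.

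**Figure D4:**
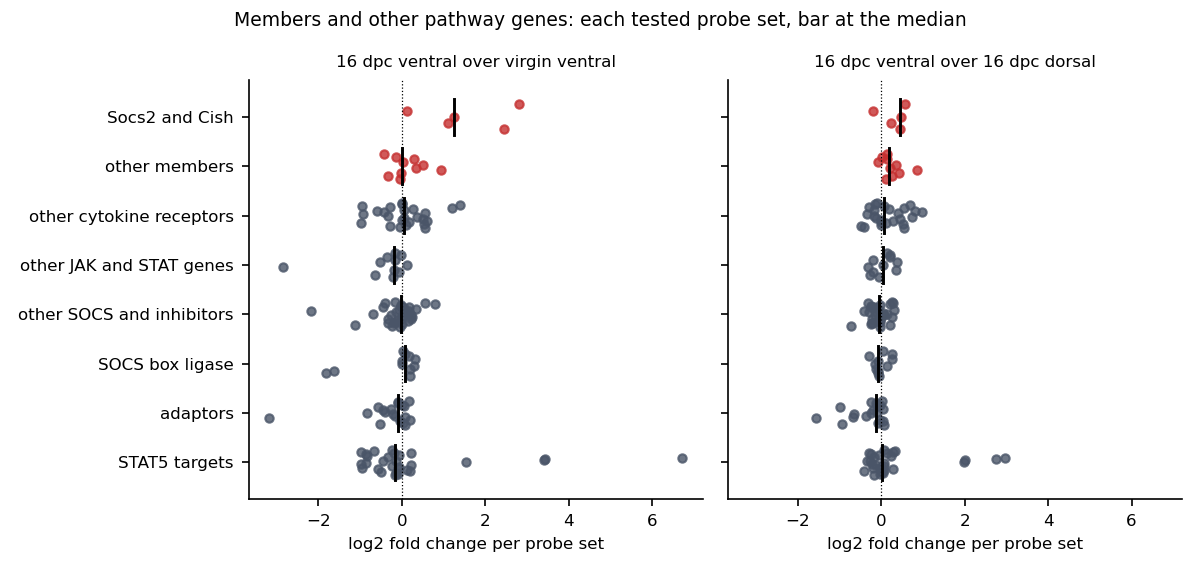
Log2 fold change of each tested probe set of the members (red) and of the pathway lists (grey) in 2 comparisons, with a bar at each median. Lists centre near 0, and the STAT5 target points at 3.4 or more in ventral over virgin cells are Csn1s1 and Csn2.

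Of the members, Socs2 on 1418507_s_at had the widest range of group means, 2.80 log2 units, followed by Cish at 1.11, Socs3 at 0.58, Stat5a at 0.51, Stat5b at 0.34, Ghr at 0.15 and Jak2 at 0.09, each on its probe set of highest mean. Likeness to the Socs2 profile was measured as the root mean square difference of log2 signals over the 6 arrays after subtracting each probe set's mean. The nearest genes were Serpinb12 at 0.35, a serine protease inhibitor, Thy1 at 0.42, a surface protein of dendritic epidermal T cells, Deptor at 0.44, an inhibitor of mTOR, Lcp1 at 0.52, a leukocyte actin bundler, and Ikzf4 at 0.53, a transcription factor known from regulatory T cells. The second Socs2 probe set stood at 0.44 and Cish at 0.77, which is number 62 among the probe sets compared.

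Thy1 gave 402 and 457 in virgin cells, 1347 and 2235 in dorsal cells and 3086 and 4216 in ventral cells. Deptor gave 328 and 396, 1326 and 1071, and 1318 and 1198. Like Socs2, both were lowest on the virgin pair, but Deptor did not separate dorsal from ventral cells. The profiles rest on 6 arrays that share their groups, and they describe likeness only.

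**Figure D5:**
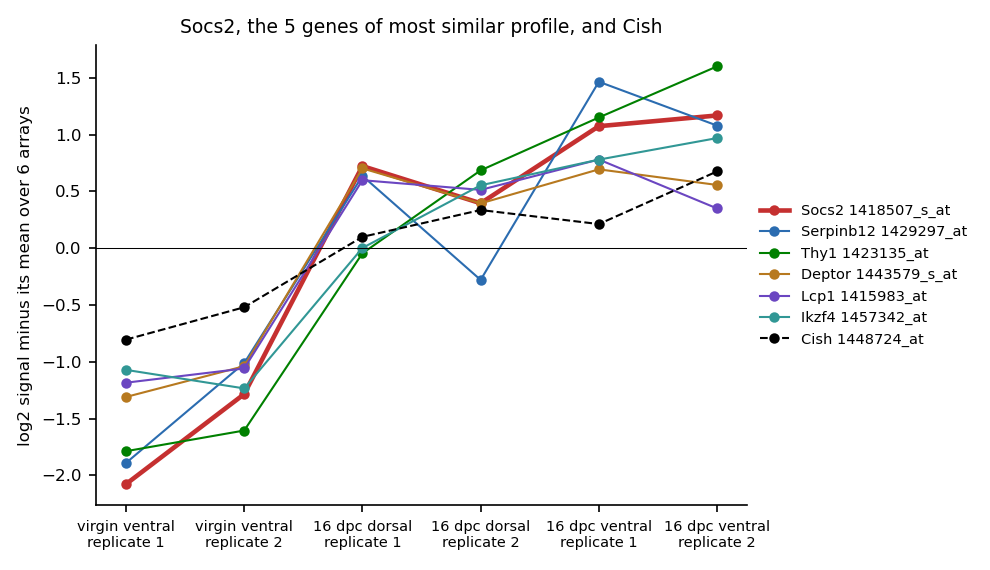
Log2 signal minus its mean over the 6 arrays for Socs2 (1418507_s_at, thick red), its 5 nearest genes and Cish (dashed). Lines join arrays only to guide the eye. All 7 profiles are lowest on the 2 virgin arrays, and Cish spans the smallest range.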

How the data were processed

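RNA of sorted cells was labelled with a 3′ kit and hybridised to Affymetrix mouse arrays of 45101 probe sets, 64 of them controls. The deposited signal intensity and detection call of each probe set were made by the authors with Affymetrix Expression Console version 1, per the submitters' processing notes, and the trimmed mean was scaled to 500.0 on each array. Depth here is signal over background: the lowest signal called present was 6.34 to 11.3. After such scaling a shift in the whole RNA content of the cells is not visible.

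Groups and replicate numbers came from the labels. Gene names came from the platform annotation, where 34945 probe sets name 1 gene, 932 several and 9160 none, and 34741 matched RefSeq by gene number. Values below 1 were raised to 1 before log2. The 22463 probe sets with a pair of present calls in 1 group or more were fitted with limma 3.58.1 (lmFit, eBayes with trend) in R 4.3.3, over the 6 arrays and 3 groups together, with 3 residual and 4.04 prior degrees of freedom, two-sided, with Benjamini-Hochberg adjustment and a threshold of 0.05. The script was tested on simulated data. The named pathway genes were, per list, the up to 3 of smallest unadjusted p over the 2 ventral comparisons by their probe set of highest mean. Jak1, Cul5 and Csn2 were named after their values were seen. Members, lists and tests were chosen with earlier results of these data known. Settings changed in turn were the filter, the offset, quantile normalization, the trend, 1 probe set per gene, the samples fitted, the replicate block and each array left out.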

Additional observations from a re-analysis of the deposited data

How the results depend on the processing

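No member probe set passed limma's adjusted p of 0.05 in any comparison, and 0 to 0 passed when each of the 6 arrays was left out in turn. For the pathway lists the range was 0 to 0 too. The filter, an offset of 16, quantile normalization, no trend and fitting only the groups compared gave 0 as well. With 1 probe set per gene, 1 member (Socs2) and 1 pathway gene (Il4ra) passed in ventral over virgin cells, among 22 of 11159 genes, and 0 in the other comparisons. Fewer features are tested there, and 1418507_s_at stood for Socs2 by a narrow margin of mean signal. Without both 16 dpc replicate 2 arrays, chosen after seeing the data, 2 member probe sets passed in ventral over virgin and 2 in dorsal over virgin cells, both of Socs2, and 7, 1 and 2 pathway probe sets passed in ventral over virgin, dorsal over virgin and ventral over dorsal cells. That fit rests on the spread of the virgin pair and called 202, 107 and 37 of all 22463 probe sets in the same order.

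Same-numbered arrays deviated together between dorsal and ventral 16 dpc cells (correlation 0.54 over probe sets). They did not between virgin and dorsal (−0.01) or virgin and ventral cells (−0.02), so the numbers were not taken to pair virgin with 16 dpc samples. The main fit paired no arrays, and the errors of ventral over dorsal cells leave that shared deviation out. A fit pairing only the 16 dpc groups was not run, and a block gives all 3 groups the same shift. With the replicate number as a block, 0 members and 0 pathway probe sets passed in all 3 comparisons. The adjusted p of Socs2 1418507_s_at was then 0.106 in ventral over virgin cells.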
